A study of Mus musculus with 2 samples.

Results

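The miR-15 family is a set of miRNA genes whose main products begin with nearly the same bases and which are known as brakes on the cell cycle. Its genes in these data were those that GENCODE M21 names Mir15a, Mir15b, Mir16-1, Mir16-2, Mir195a, Mir195b and Mir497b, found by their identifiers among 1973 listed miRNA genes. Mir497, which has no row of its own, was the eighth member, read from the opposite-strand counts at Mir497b, where it lies on the other strand. A further 10 listed genes, from Mir1950 to Mir1958, only share the digits of Mir195 in their symbols and were set aside. Of these, Mir1955 had 116 counts in replicate 1 and 86 in replicate 2, and the other 9 had between 0 and 3 counts per library.

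The 2 libraries held small RNA of whole hearts from healthy B6NCrl mouse embryos, males and females mixed, taken at embryonic day 16.5. They form a single group with no treatment and no engineered allele. Each is labelled a biological replicate made from pooled hearts. Replicate 2 came from 41 embryos, and the number behind replicate 1 was not given in the sources used here. As no second condition was studied, the comparisons were between members of the family, between the family and other miRNAs, and between the 2 pools. Whole hearts mix muscle, vessel, connective and blood cells, and fewer cells of a type cannot be told apart from less miRNA per cell.

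A miRNA is cut from a hairpin in a longer transcript, and its bases 2 to 8, the seed, pair with sites in messenger RNAs that are then repressed. Known targets of the miR-15 family include cyclins D and E, cyclin-dependent kinases, the checkpoint kinase Chek1 and the survival gene Bcl2. In humans the locus of miR-15a and miR-16-1 is often lost in chronic lymphocytic leukaemia. In the mouse heart miR-195 is known to rise around birth, when heart muscle cells stop dividing, and extra miR-195 in the embryo slows their division.

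The 5 mature miRNAs of the 5′ arm from the 6 principal hairpins carry one seed, and their sequences are shown because they decide both which sites the family can pair with and which reads could be assigned to one gene. They are RefSeq sequences on build GRCm38, 5′ to 3′, with the seed in capitals.
miR-15a-5p: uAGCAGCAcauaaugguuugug
miR-15b-5p: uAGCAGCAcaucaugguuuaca
miR-16-5p: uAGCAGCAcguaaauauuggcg
miR-195a-5p: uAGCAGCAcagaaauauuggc
miR-497a-5p: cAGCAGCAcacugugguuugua
miR-195b: uAGCAGCAcagaaauaguagaa
The first 5 were identical from base 2 to base 9 and at 10 of the 21 positions compared. Over their whole length, seed included, some pairs were more alike than others. miR-15a-5p and miR-15b-5p were identical at 18 of 22 positions, and miR-16-5p and miR-195a-5p at 19 of 21. miR-497a-5p was identical to miR-15a-5p at 17 of 22 and to miR-15b-5p at 16 of 22. With miR-16-5p it was identical at 11 of 22 and with miR-195a-5p at 12 of 21. miR-195b, from the single hairpin Mir195b, was identical to miR-195a-5p from its first base through base 16.

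miR-16-5p is made from both Mir16-1 and Mir16-2. The longest stretch common to these hairpins is 23 bases long and begins with the first base of the 22-base miR-16-5p, shown here because reads that lie wholly within it match both genes:
shared stretch: uagcagcacguaaauauuggcgu
The deposited tables counted reads matching several places in no gene, and such reads numbered 4482590 in replicate 1 and 4105896 in replicate 2. How many of them were miR-16-5p was not tested. The counts at Mir16-1 and Mir16-2 are therefore uncertain as levels of miR-16 and hold only reads that could be placed at 1 gene. No other member shared a run of 20 bases with the sense strand of another miRNA hairpin, against 48.7% of the 1894 listed genes with a hairpin sequence. Each of the other mature sequences of the family was found in 1 miRNA hairpin.

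The 3′ arms, which lie across the hairpin from the seed, differ more, and 4 of them are shown because they hold the letters UGCUGCU, the complement of the seed. The capitals again mark bases 2 to 8.
miR-15b-3p: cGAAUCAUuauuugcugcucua
miR-16-1-3p: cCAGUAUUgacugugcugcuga
miR-16-2-3p: aCCAAUAUuauugugcugcuuu
miR-195a-3p: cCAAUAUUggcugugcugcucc
Those 4 were among the 6 arms of the family named 3p (66.7%), while 5 of 1679 mature miRNAs in the RefSeq table held the letters (0.298%); miR-15a-3p and miR-497a-3p did not. miR-497b, the product annotated for Mir497b, has another seed than the family (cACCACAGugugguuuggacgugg).

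Most of the family lies in 3 clusters of 2 hairpins. On chromosome 14, Mir15a (ENSMUSG00000093007.1; chr14:61632027-61632110, minus strand) is intronic in the long non-coding RNA gene Dleu2. Its neighbour Mir16-1 (ENSMUSG00000092995.1; chr14:61631880-61631972, minus strand) lies 54 bases downstream and overlaps an exon of an annotated Dleu2 transcript. On chromosome 3, Mir15b (ENSMUSG00000065580.2; chr3:69009772-69009835, plus strand) and Mir16-2 (ENSMUSG00000065606.1; chr3:69009902-69009996, plus strand) are 66 bases apart. Both are intronic in Smc4, which codes for a subunit of condensin, the complex that compacts chromosomes for cell division. On chromosome 11, Mir497 (ENSMUSG00000105220.1; chr11:70234717-70234800, plus strand) and Mir195a (ENSMUSG00000065411.2; chr11:70235042-70235135, plus strand) are 241 bases apart with no annotated host on their strand. Mir497b (ENSMUSG00000070109.2; chr11:70234692-70234816, minus strand) covers all 84 bases of Mir497 from the other strand. Mir195b (ENSMUSG00000098437.1; chr2:56785811-56785907, plus strand) stands alone without a host. These are coordinates of GENCODE M21 on mm10, the build of the counts.

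Sense counts at listed genes numbered 6473482 in replicate 1 and 5841568 in replicate 2, 42.6% and 45.3% of all reads. Levels are given as counts per 1000000 sense counts (CPM) and, unless stated, as mean ± SD over the 2 libraries (n = 2). They compare numbers of reads between genes, not corrected for hairpin length, and the annotated mature products of the 6 principal genes are 21 or 22 bases long. A gene was called detected with at least 10 counts in each library, which 365 listed genes and Mir497 reached. As a check of the labelled tissue, the 8 heart muscle markers, of which 7 were listed and 5 detected, held 6.77% and 6.71% of counts. Most of this was Mir208b, at 59090 and 57432 CPM, while Mir1a-1 (2.41 CPM) and Mir133a-1 (2.67 CPM) were near the detection limit. Both are numbered copies, and reads common to copies are in no count, so these values are uncertain as levels of miR-1a and miR-133a. The share of the heart list leaves out such reads too. Markers of smooth muscle and fibroblasts held more placed reads than the heart list (9.98% and 10.01%), as did the endothelial Mir126a (8.59% and 8.42%). Erythroid, leukocyte and liver markers held at most 0.204%, but of the 4 leukocyte markers only 3 were listed, without Mir142. None of the 5 listed neural markers was detected. They are numbered copies of Mir124a and Mir9, and reads common to copies are in no count, so this does not check the tissue. Intervals are 95% Wilson intervals; PCR copies could not be told from separate molecules, and these limits reflect counting error alone.

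The family as a whole held 0.555% of sense counts in replicate 1 (interval 0.549% to 0.561%) and 0.560% in replicate 2 (0.554% to 0.566%), a mean of 0.557% ± 0.0034. The intervals overlap. Of its 8 genes 6 were detected.

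In placed reads Mir15a was the highest member. It had 14776 counts in replicate 1 and 13003 in replicate 2, or 2283 and 2226 CPM (2254 ± 40.0). It ranked 51st of 366 genes, between Mir296 (2312 ± 124 CPM) and Mir379 (2247 ± 15.3 CPM). Mir16-1, from the same cluster, had 8713 and 9099 counts, or 1346 and 1558 CPM (1452 ± 150). The 2 libraries lay further apart at Mir16-1 than at Mir15a, at 10.3% of the mean against 1.78% as a coefficient of variation. Mir16-1 ranked 70th, between Mir449a (1463 ± 635 CPM) and Mir541 (1437 ± 70.8 CPM).

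The copies in Smc4 were lower. Mir15b had 4546 and 3958 counts, or 702 and 678 CPM (690 ± 17.5), and ranked 93rd between Mir467c (692 ± 74.9 CPM) and Mir337 (652 ± 34.0 CPM). Mir16-2, the lowest of the detected members in placed reads, had 1408 and 1475 counts, or 218 and 253 CPM (235 ± 24.7). It ranked 141st, between Mir302a (238 ± 31.6 CPM) and Mir96 (232 ± 17.5 CPM). As on chromosome 14, the miR-15 gene of the cluster gave more counts than the miR-16 gene in each library.

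The cluster on chromosome 11 holds the member best known from the heart. Mir195a had 3516 and 2690 counts, or 543 and 460 CPM (502 ± 58.4), and ranked 103rd between Mir203 (543 ± 56.4 CPM) and Mir183 (485 ± 50.8 CPM). Mir497 had 2965 and 2471 counts, or 458 and 423 CPM (441 ± 24.8), and ranked 111th between Mir185 (442 ± 23.9 CPM) and Mir199b (413 ± 41.5 CPM). Both were lower in replicate 2. On the strand of Mir497b itself there was 1 count in replicate 1 and 0 in replicate 2, so nearly all reads at this place were of the strand of Mir497. Mir195b had 0 counts in replicate 1 and 1 in replicate 2. A count of 0 allows up to 3 counts, or 0.463 CPM in replicate 1 and 0.514 CPM in replicate 2. The other 6 members had 0 opposite-strand counts in each library.

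**Figure D1:**
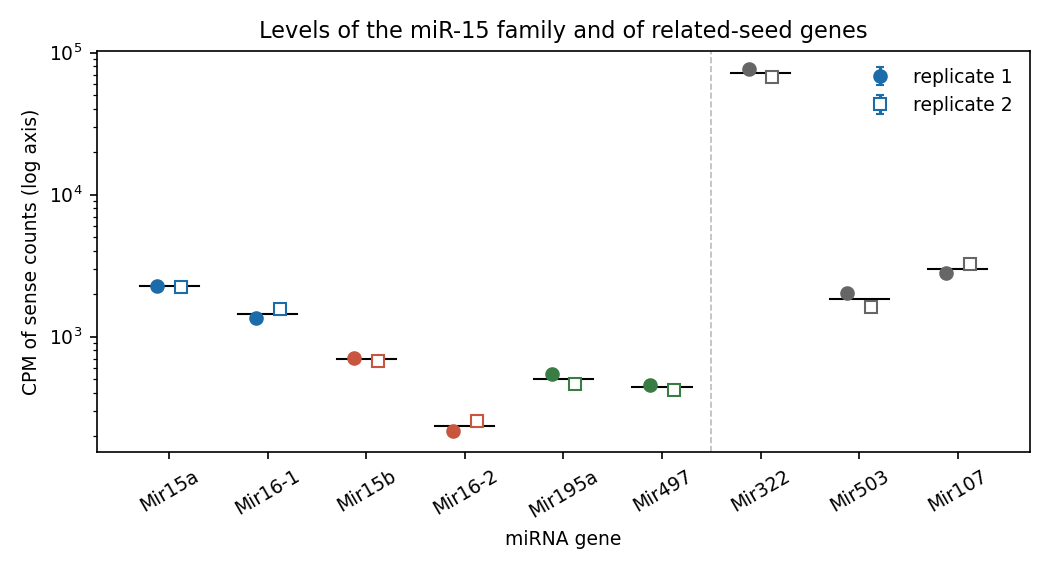
CPM of sense counts (log axis) of the 6 detected family members and of 3 genes with the same or an overlapping seed, by library, with filled circles for replicate 1, open squares for replicate 2, lines for the mean and 95% Wilson intervals as bars, often smaller than the symbol. The members run from 2254 CPM for Mir15a to 235 CPM for Mir16-2, while Mir322 stands at 72099 CPM.

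In placed reads, the order of the members was therefore Mir15a, Mir16-1, Mir15b, Mir195a, Mir497 and Mir16-2 in both libraries. The ranges of neighbours in this order, over both libraries, did not overlap, but Mir195a and Mir497 came close, with 460 CPM as the lower value of Mir195a and 458 CPM as the higher value of Mir497. Within the family, Mir15a held 40.5% ± 0.96 of counts, Mir16-1 26.0% ± 2.5, Mir15b 12.4% ± 0.39, Mir195a 9.01% ± 1.1, Mir497 7.91% ± 0.49 and Mir16-2 4.22% ± 0.42. Reads common to Mir16-1 and Mir16-2 are in no count, so these are shares of placed reads and not of the miRNAs themselves. How the shares would change with those reads was not tested. By locus, with the same limit, the Dleu2 cluster held 66.5% ± 1.6. The Smc4 cluster held 16.6% ± 0.030 and the Mir497 and Mir195a cluster 16.9% ± 1.6, and the order of these was not the same in both libraries: 16.6% against 18.0% in replicate 1 and 16.6% against 15.8% in replicate 2.

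**Figure D2:**
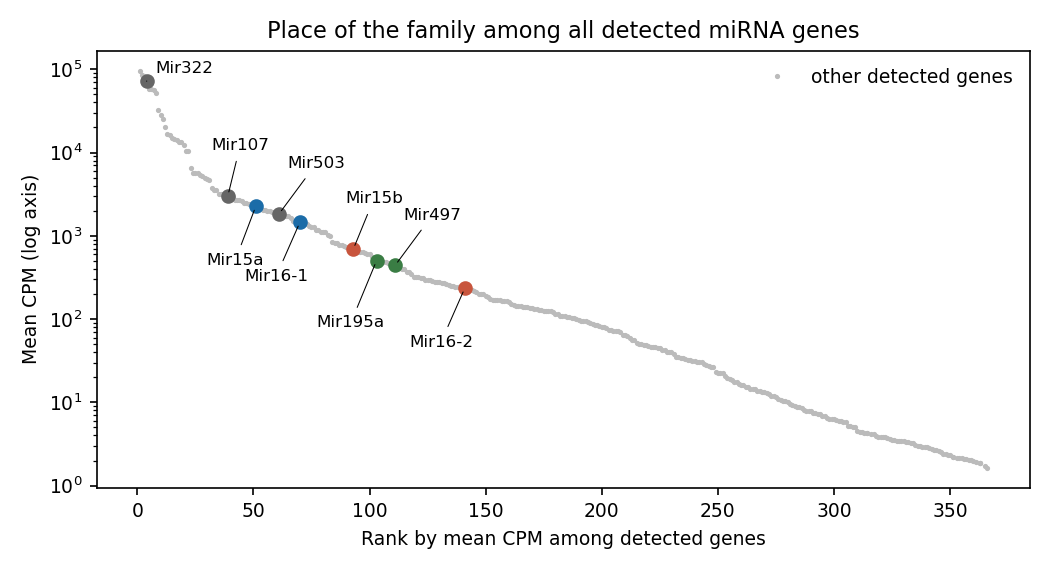
Mean CPM (log axis) against rank for the 366 detected genes, with family members in colour by cluster (blue for Dleu2, red for Smc4, green for chromosome 11) and 3 genes with the same or an overlapping seed in dark grey. The 6 members lie between rank 51 and rank 141, and Mir322 is at rank 4.

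The seed of the family is not its own. By their RefSeq sequences, 4 other listed genes carry it: Mir322, which lies on the X chromosome beside Mir503, and Mir6342, Mir6353 and Mir6419, each with 0 counts in both libraries. The main product of Mir322 and that of Mir503, whose seed differs from the family's in its last base, are shown for comparison with the family, together with miR-107-3p, in which the letters of the seed begin 1 base earlier.
miR-322-5p: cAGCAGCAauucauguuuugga
miR-503-5p: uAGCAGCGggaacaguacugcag
miR-107-3p: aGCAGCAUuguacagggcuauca
Past the seed miR-322-5p shares little with miR-16-5p, being identical at 12 of 22 positions in all, and more with miR-15b-5p, at 16 of 22.

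Mir322 gave 495088 and 395583 counts, or 76479 and 67719 CPM, and ranked 4th. Among all counts at the 11 genes with this seed, 93.2% in replicate 1 (interval 93.2% to 93.3%) and 92.4% in replicate 2 (92.3% to 92.4%) came from Mir322. Its counts exceeded those of the whole family 13.8-fold and 12.1-fold. This ratio leaves out any miR-16-5p reads among those matching several places, which outnumbered the counts of the family 125-fold and 126-fold, so the share of Mir322 among all reads with the seed is not known. Mir503 stood at 2032 and 1624 CPM (1828 ± 289), between Mir15a and Mir16-1. Mir107, known for its part in insulin signalling, stood at 2798 and 3226 CPM (3012 ± 303), above every family member. Mir103-2 had 188 and 217 counts and Mir103-1 9 and 13. The hairpins of Mir107, Mir103-1 and Mir103-2 share 20-base runs, so their counts too leave out reads common to them.

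In placed reads, the miR-15 genes of the 2 clusters, and likewise the miR-16 genes, stood in similar ratios in both pools. Reads common to the miR-16 genes are in neither of their counts. Mir15b stood 0.308-fold in replicate 1 and 0.304-fold in replicate 2 relative to Mir15a, a log2 ratio of -1.71 ± 0.01. Mir16-2 stood 0.162-fold in each library relative to Mir16-1, a log2 ratio of -2.63 ± 0.003. Between libraries the log2 ratio of Mir15b over Mir15a moved by -0.02 (95% interval -0.09 to 0.05) and that of Mir16-2 over Mir16-1 by 0.005 (-0.11 to 0.12). By Fisher's exact test, two-sided and adjusted over the 5 ratios by the Benjamini-Hochberg method, neither passed, with adjusted p = 0.841 and 0.952.

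Neighbours within a cluster moved against each other by more than counting error, in placed reads that leave out those common to the miR-16 genes. Mir15a exceeded Mir16-1 1.70-fold in replicate 1 and 1.43-fold in replicate 2 (log2 ratio 0.64 ± 0.17), a change of -0.25 (-0.30 to -0.19) with Fisher's exact adjusted p = 2.7e-18. Mir15b exceeded Mir16-2 3.23-fold and 2.68-fold (log2 ratio 1.56 ± 0.19), a change of -0.27 (-0.39 to -0.14) with Fisher's exact adjusted p = 4.83e-05. Mir497 stood 0.843-fold and 0.919-fold relative to Mir195a (log2 ratio -0.18 ± 0.09), a change of 0.12 (0.02 to 0.23) with Fisher's exact adjusted p = 0.0376. In both clusters with a miR-15 and a miR-16 gene, the miR-16 gene was thus nearer to its neighbour in replicate 2, in placed reads. Moves of this size were common: the median absolute difference in log2 ratio was 0.25 for the 3 family pairs and 0.19 for 64 other pairs of detected neighbours at most 1000 bases apart. The tests compare the reads of 2 libraries, not conditions.

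**Figure D3:**
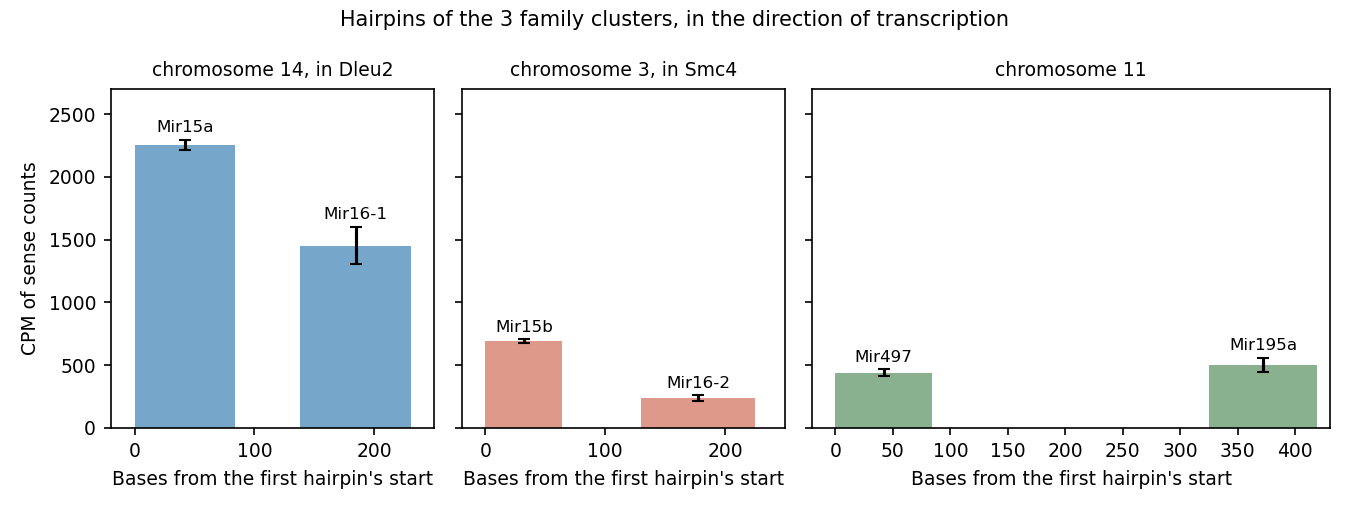
Mean CPM of sense counts (bars from 0, error bars SD, n = 2) of the 2 hairpins in each of the 3 clusters, drawn at their distance in bases from the start of the first hairpin in the direction of transcription. Mir15a and Mir16-1 are 54 bases apart, Mir15b and Mir16-2 66, and Mir497 and Mir195a 241. Reads common to Mir16-1 and Mir16-2 are in no bar.

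Genes of one cluster can be cut from one transcript, and in placed reads the members of the family lay closer than most such neighbours. The absolute log2 ratio of mean CPM was 0.19 for Mir497 and Mir195a, 0.63 for Mir15a and Mir16-1 and 1.55 for Mir15b and Mir16-2. Among 64 other pairs of detected genes next to each other on one strand, at most 1000 bases apart, the median was 3.47, with quartiles of 1.63 and 5.31. Of those pairs, 1 was closer in level than Mir497 and Mir195a, 6 than Mir15a and Mir16-1 and 16 than Mir15b and Mir16-2. Many of these pairs share a cluster with each other, so the counts are a description with no test. They rest on placed reads only, in the other pairs as in the 2 that hold a miR-16 gene. How many reads each gene loses by this was not tested and can differ between pairs. Whether the miRNAs themselves lie closer in level is therefore not known.

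**Figure D4:**
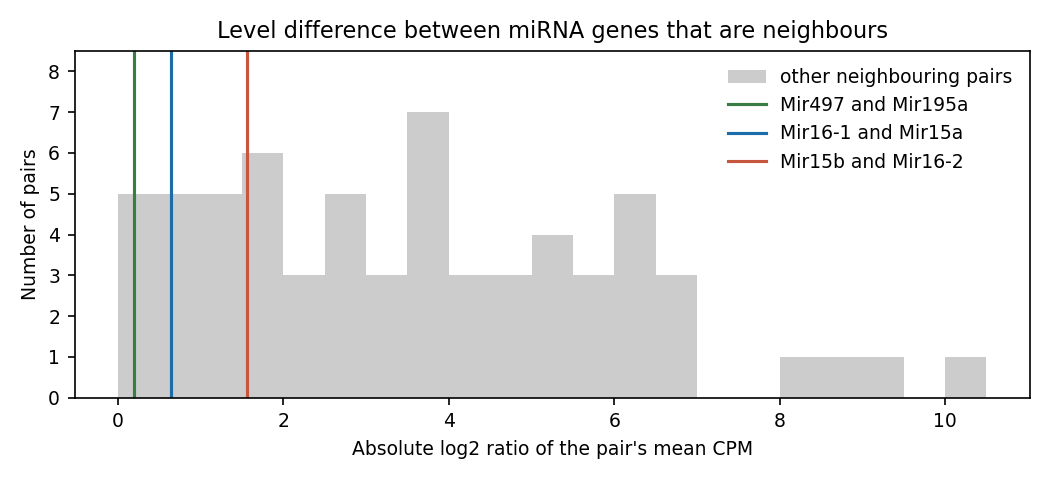
Number of pairs of neighbouring detected miRNA genes (at most 1000 bases apart on one strand) by the absolute log2 ratio of their mean CPM, with 64 other pairs as grey bars and the 3 family pairs as lines. The family pairs lie at 0.19, 0.63 and 1.55, and the median of the others is 3.47.

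The 2 pools were then compared gene by gene, by a two-sided exact binomial test on counts with TMM-scaled library sizes, adjusted over 366 genes by the Benjamini-Hochberg method. No family member reached a 2-fold difference: 0 of 6 were called with adjusted p under 0.05 and at least 2-fold, where 3.28% of all genes were. Unadjusted p-values cover counting error alone, so members are not counted by them here. With no minimum fold, 3 of the 6 were called, where 46.4% of all genes were, which is near the background. Of the 6 members, 2 were called higher in replicate 2, against 26.2% of all genes tested, and 1 lower, against 20.2%. The median log2 ratio of the 6 was -0.02, against 0.02 over all genes, and the median absolute log2 ratio was 0.15 against 0.21. All 6 members stood above 200 CPM, and over the 147 genes with a mean of at least 200 CPM that median was 0.14. These genes include the members and reach up to Mir143 at 96423 CPM, so they are not matched in level. Of them, 74.8% differed by no more than the member that differed most.

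Both miR-16 genes were higher in replicate 2, Mir16-1 by 0.24 ± 0.02 (log2 ratio ± counting SE; 1.18-fold, exact binomial adjusted p = 5.5e-27) and Mir16-2 by 0.24 ± 0.05 (1.18-fold, exact binomial adjusted p = 2.53e-05). Mir195a was lower in replicate 2 with a log2 ratio of -0.21 ± 0.04 (1.16-fold, exact binomial adjusted p = 3.74e-08). The others did not pass: Mir15a stood at -0.01 ± 0.02 (adjusted p = 0.677 by the exact binomial test), Mir15b at -0.03 ± 0.03 (0.549) and Mir497 at -0.09 ± 0.04 (0.0516). Mir497 passed with total-count scaling (-0.11, exact binomial adjusted p = 0.00883) and with DESeq2 size factors (-0.11, 0.0163). The SE covers counting error, while the spread between pools over all genes, as edgeR's biological coefficient of variation, was 17.6%. That value is the spread of a single library around the mean, and a difference between libraries spreads wider. Shifts of 1.16-fold to 1.18-fold are therefore within the spread of such a difference. At Mir16-1 and Mir16-2 the shifts rest on placed reads, which leave out reads common to both genes. Whether miR-16 itself differed between the pools was not tested.

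Of the genes with a related seed, Mir322 was 1.11-fold and Mir503 1.23-fold lower in replicate 2. Mir103-2 (1.30-fold) and Mir107 (1.17-fold) were higher. None of the 4 differed 2-fold, and Mir103-1 was below the detection limit. Mir322 and Mir503 moved the same way as Mir195a, and Mir103-2 and Mir107 the same way as the miR-16 genes. A gene can only move up or down, and a link of these directions to the seed was not tested.

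**Figure D5:**
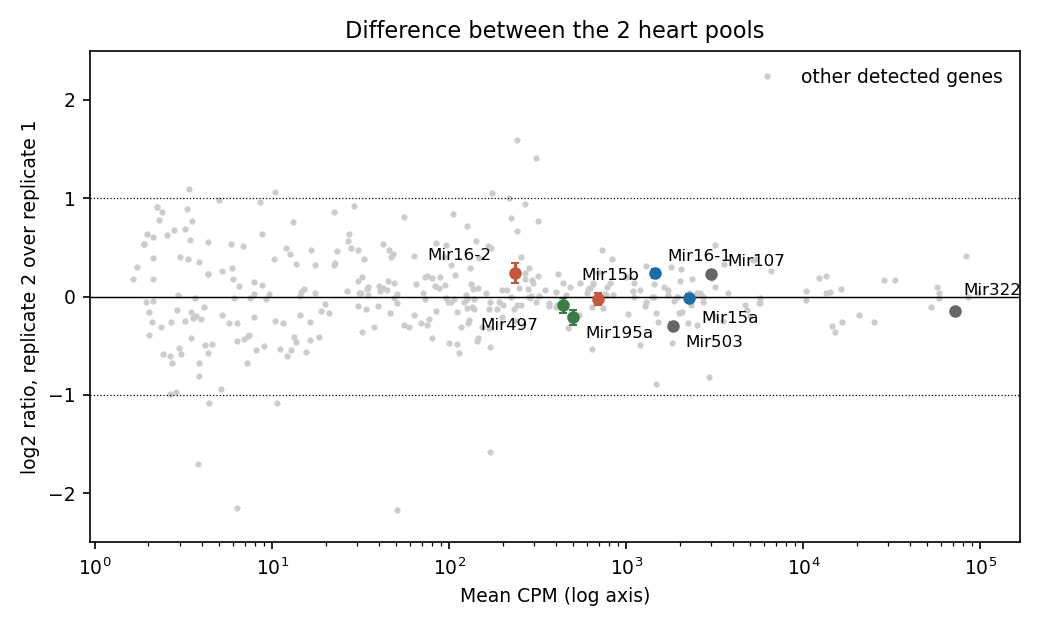
Log2 ratio of replicate 2 over replicate 1 against mean CPM (log axis) for 366 genes, with the 6 family members in colour by cluster and Mir322, Mir503 and Mir107 in dark grey, bars giving 95% counting intervals and dotted lines a 2-fold difference. Mir16-1 and Mir16-2 both lie at 0.24, Mir15a and Mir15b near 0 and Mir195a at -0.21, all inside the dotted lines.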

How the data were processed

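The deposited tables give raw read counts for each miRNA gene, made on mm10 with annotation M4 per the authors' lists of files. Which aligner and counter made them is not given in the sources used here. Counts are given for reads of either strand and for each strand, and the strand with more counts at genes in both libraries was taken as sense. Lines for unmapped reads (22.4% and 17.2%), reads matching several places (29.5% and 31.9%), reads outside genes (2.99% and 2.66%) and ambiguous reads (0) stayed out of totals.

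Symbols, positions and hairpins came from GENCODE M21 (1894 of 1973 identifiers matched) and mature sequences from RefSeq on GRCm38. M21 holds a later version of the Mir15b identifier than the tables. CPM used the sense total of listed genes, for Mir497 too. TMM factors came from edgeR 4.0.16 in R 4.3.3, whose quasi-likelihood test has no contrast with 1 group. Libraries were compared with exact binomial tests (scipy 1.17.1, Python 3.11.15), and log2 ratios used 0.5 added to each count. The tests were checked on simulated counts with counting error alone, so that check does not cover the spread between pools. Ratios of 2 genes were compared between libraries by Fisher's exact test, with normal intervals for the change from the counts. A seed was bases 2 to 8.

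Named genes were the family, genes with the same seed and counts, Mir503, Mir103-1, Mir103-2 and Mir107, and the genes ranked next to each detected member. Genes with the same seed at 0 counts were named for completeness. Members and lists were chosen with earlier results of these data known, and the neighbouring pairs after the files were seen. Alternatives were other scalings (total counts, DESeq2 1.42.0), count filters, strand columns, totals, minimum folds and leaving out each replicate.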

Additional observations from a re-analysis of the deposited data

How the results depend on the processing

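The share of the family depended on what was counted. It was 0.524% with reads of either strand, 0.513% without assigning opposite-strand counts to Mir497, 0.617% with the most abundant gene left out of the total and 0.245% of all reads in the library, against 0.557%. Leaving out a replicate gave 0.555% to 0.560%. No member was called between libraries at 2-fold with total-count scaling, DESeq2 size factors, no count filter, detection at 50 counts or reads of either strand. The same held with a 1.5-fold minimum. Calls with no minimum fold rest on counting error alone and are not compared between settings here. TMM raised every log2 ratio between libraries by 0.03 against total counts and DESeq2 size factors by 0.01, and no member's direction changed. The log2 ratios of 2 members kept their sign in each library. No paired analysis was possible because the labels give a single group. With 2 libraries the spread between pools rests on 1 difference per gene, and reads of miR-16-5p that match both of its genes are in no count.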
